A study of Mus musculus with 36 samples.

Results

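The hearts described here had carried an active Akt1 transgene that was then switched off, and they were compared by how long it had been on and how long off. They were chosen by their sample titles: 3 late repressed hearts, with 6 weeks of Akt1 induction followed by 2 weeks of repression, and 4 early repressed hearts, with 2 weeks of induction followed by 2 days of repression. These 7 of the 18 hearts of the study account for 14 of its 36 arrays, because the RNA of each heart was hybridized to 2 Affymetrix mouse chips, 430A and 430B. Every heart came from a male mouse that carried both transgenes, Tet-myrAkt1, which encodes a membrane-targeted form of Akt1, and ?MHC-tTA, a tetracycline-controlled transactivator under a myosin heavy chain promoter (the first letter of its name is lost in the labels). The late repressed mice were 20 weeks old and the early repressed mice 14 weeks and 2 days. The other 11 hearts served as reference: 4 from mice of 12 weeks in which the transgene had not been induced, 4 from mice of 14 weeks with it on for 2 weeks, and 3 from mice of 18 weeks with it on for 6 weeks. The hearts before induction carried the same transgenes, so no heart lacked them. The length of induction, the length of repression and the age all differ between the late and the early repressed hearts, and their parts in a difference cannot be told apart.

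Akt1 is a protein kinase that acts below the insulin and insulin-like growth factor receptors through phosphatidylinositol 3-kinase. In heart muscle it promotes cell growth and glucose use, and it phosphorylates the FoxO transcription factors, which keeps them out of the nucleus and lowers the transcription of atrophy genes such as Fbxo32. Sustained activity enlarges the heart, and withdrawal of the signal lets the muscle shrink again.

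Before the groups were compared, the single hearts were examined, and each late repressed heart resembled 1 of the early repressed hearts. The 200 bright probe sets of chip 430A that varied most among the early hearts were taken (mean signal at least 100% of the trimmed mean of the chip), and the deviation of each heart from the mean of its own group was computed on the log2 scale. Across these probe sets the deviations of late heart 1 followed those of early heart 1 (Pearson r = 0.70), those of late heart 2 followed early heart 3 (r = 0.63), and those of late heart 3 followed early heart 4 (r = 0.85). Early heart 2 had no counterpart, its highest r with a late heart being 0.18. These correlations run across probe sets of the same arrays, which are not independent replicates, and describe the arrays only.

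**Figure D1:**
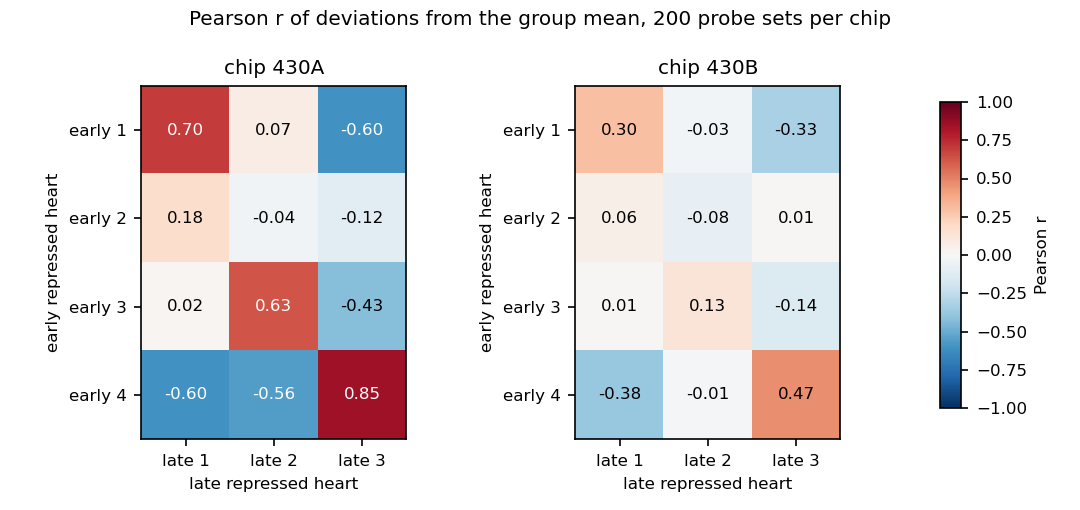
Pearson correlation across 200 probe sets between the deviation of each early repressed heart (rows) and each late repressed heart (columns) from its own group mean, for chip 430A (left) and chip 430B (right). In every column the highest value lies at the same early heart on both chips: early heart 1 for late heart 1 (0.70 and 0.30), early heart 3 for late heart 2 (0.63 and 0.13) and early heart 4 for late heart 3 (0.85 and 0.47).

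Chip 430B, hybridized separately, gave the highest value to the same 3 pairs, at r = 0.30, 0.13 and 0.47 over its own 200 most variable probe sets. Computed the same way, the highest r between single hearts of any other pair of groups was 0.48 on chip 430A, between a heart before induction and one at 6 weeks on, below the 3 pairs. On chip 430B that highest r was 0.30, so there only the pair of early heart 4 and late heart 3 stood clearly above it. On chip 430A late heart 1 lay closest to early heart 1 at 91 of the 200 probe sets (45.5%), late heart 2 closest to early heart 3 at 87 (43.5%) and late heart 3 closest to early heart 4 at 84 (42.0%). The margins on chip 430B were small, with 66 of 200 for early heart 1 against 59 for the next early heart, 63 against 54 and 67 against 63, and by the median absolute log2 difference late heart 1 lay nearer to early heart 2 (0.535) than to early heart 1 (0.547). Over all probe sets tested on chip 430A the signals themselves did not single out every pair. By the median absolute log2 difference late heart 1 lay nearest to early heart 1. Late heart 3 lay nearest to early heart 4, by a small margin (0.19, against 0.193 from early heart 2). Late heart 2 lay nearer to early heart 1 (0.168) and early heart 2 (0.179) than to early heart 3 (0.185). Over all probe sets tested on chip 430B each late heart lay nearest to its counterpart by this measure. The values were 0.319 for late heart 1 (next early heart 0.327), 0.295 for late heart 2 (next 0.325) and 0.253 for late heart 3 (next 0.258). The labels describe hybridizations from individual mice and give the groups different ages. Whether RNA of the same hearts stands under both labels was not tested, and all p-values below treat the 7 hearts as separate animals.

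The resemblance was plainest in genes of atrial muscle. Sarcolipin (Sln), a small inhibitor of the sarcoplasmic calcium pump found mainly in the atria, had signals of 6985, 3347, 1876 and 8.5 in early hearts 1 to 4 and of 7887, 2005 and 5.0 in late hearts 1 to 3. The regulatory light chain of atrial myosin (Myl7) read 8761, 4869, 3272 and 32.1 in the early hearts and 9701, 3217 and 15.3 in the late ones. Both genes were thus near the bottom of the scale in early heart 4 and late heart 3, and highest in the hearts numbered 1. The essential light chain of atrial myosin (Myl4) ran 10170, 7098, 4467 and 369.8 against 10750, 3990 and 400.0. On chip 430B the most variable named gene, Mybphl, a myosin-binding protein of atrial muscle, ran 1970, 1002, 457.0 and 24.5 against 2067, 360.1 and 48.6.

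Genes of fat and of fatty acid synthesis followed another order with the same partners. Stearoyl-CoA desaturase (Scd1), which introduces the double bond of monounsaturated fatty acids, gave 1011, 923.8, 8140 and 549.6 in the early hearts and 1062, 6988 and 424.1 in the late hearts. Fatty acid synthase (Fasn) gave 1030, 1119, 3628 and 872.1 against 1041, 3520 and 855.4. Only early heart 3 and late heart 2 were high in both. Adiponectin (Adipoq), a hormone of fat cells, was 224.4, 500.8, 1511 and 10.7 in the early hearts and 282.3, 1329 and 11.1 in the late hearts. Carbonic anhydrase 3 (Car3), abundant in fat and slow muscle, ran 966.5, 2057, 3498 and 27.5 against 1272, 3702 and 44.6.

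Other genes split the hearts in further ways. Securin (Pttg1), which holds sister chromatids together until anaphase, read 239.6, 2247, 329.6 and 2073 in the early hearts and 244.3, 360.0 and 1992 in the late ones, so that it was high in early hearts 2 and 4 and in late heart 3. The phosphodiesterase gene Gdpd3 read 2463, 1900, 180.0 and 283.8 against 3037, 212.7 and 148.4. Baiap2l1, an adaptor between membrane and actin, was low in early heart 4 (323.2) and late heart 3 (319.9) and between 2543 and 4197 in the other repressed hearts. The channel subunit Kcnip2, by its probe set on chip 430B, read 496.8, 44.3, 558.2 and 44.3 against 506.4, 659.1 and 66.5. A probe set of the histocompatibility gene H2-D1 was at 8.6 in early heart 2, which had no counterpart, and between 541.6 and 852.3 in the other 6 repressed hearts. Splits in several of these genes were not particular to the repressed hearts. Before induction H2-D1 read 8.2, 1458, 1546 and 607.6, Pttg1 1474, 183.1, 125.8 and 109.3, and Baiap2l1 318.1, 1807, 1955 and 275.8. At 2 weeks on Gdpd3 read 1662, 726.0, 174.9 and 1318.

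Not every variable gene kept the order. The calcium-dependent kinase gene Camk2d had 294.6, 965.6, 274.9 and 191.7 in the early hearts and 715.8, 899.4 and 337.0 in the late hearts, and Bola2 had 346.7, 864.3, 166.9 and 883.3 against 468.8, 624.9 and 487.5. These genes were taken from the 16 most variable on chip 430A and the 2 most variable on chip 430B, apart from Adipoq, and were named after their values had been seen.

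**Figure D2:**
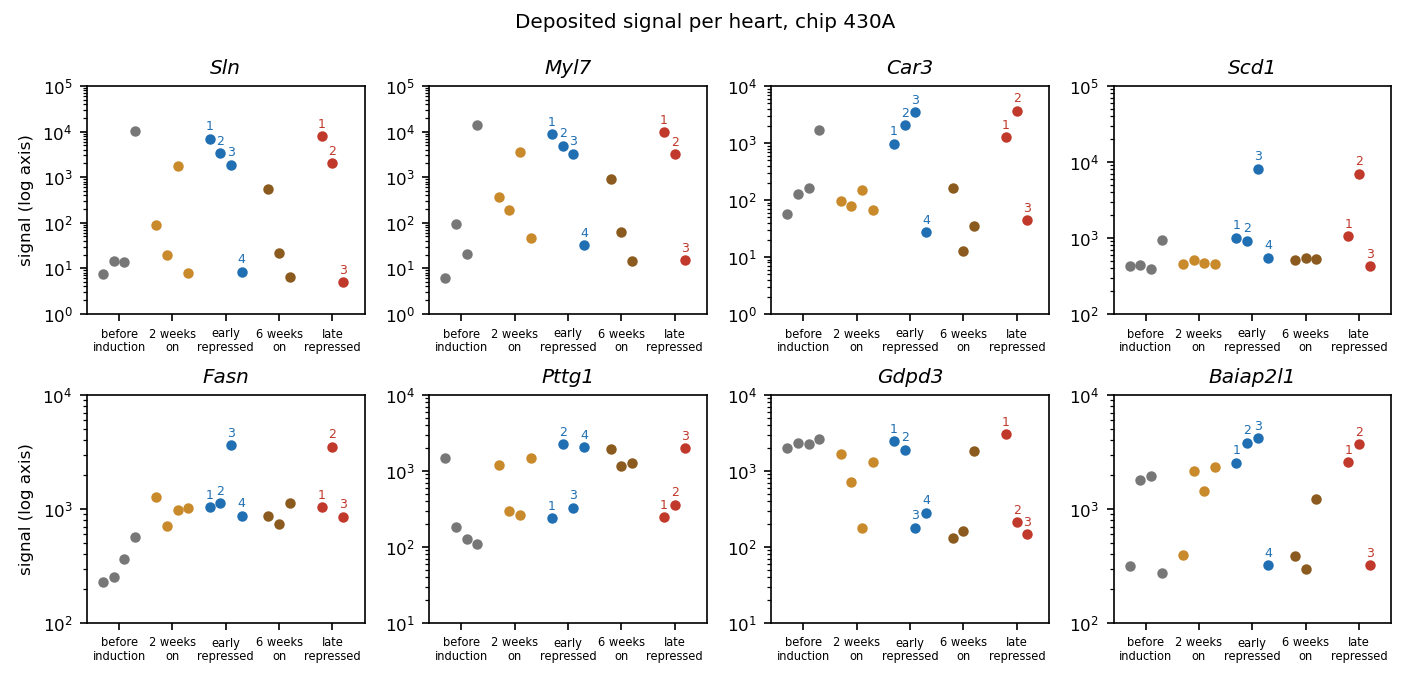
Deposited signal on a log axis of 8 genes in each of the 18 hearts, by group, with the heart number above the points of the repressed hearts. For Sln and Myl7 early heart 4 and late heart 3 are the lowest of their groups, for Scd1 and Fasn early heart 3 and late heart 2 are the highest, and for Pttg1 early hearts 2 and 4 and late heart 3 are high.

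Over the atrial, adipocyte and erythroid marker lists, the repressed hearts differed from each other more than the groups did. The atrial and adipocyte lists hold genes already named above. The mean log2 difference from the hearts before induction over 10 measured atrial markers was 1.80, 1.39, 1.15 and -0.74 in early hearts 1 to 4 and 1.73, 1.22 and -0.53 in late hearts 1 to 3. Over 7 measured adipocyte markers it was 0.31, 0.95, 1.81 and -0.71 against 0.47, 1.87 and -0.65. Over 3 erythroid markers it was -0.52, -0.08, 0.42 and -0.70 against -0.63, 0.31 and -0.51. Early heart 4 and late heart 3 were the lowest in the atrial and adipocyte lists, early heart 3 and late heart 2 the highest in the adipocyte and erythroid lists, and none of the 3 lists had a gene called between the groups. The part of these markers in other results was not tested. The hearts before induction were themselves split in atrial genes. Sln read 7.7, 14.3, 13.6 and 10060 in them, and Myl7 read 6.1, 92.3, 20.8 and 13760. At 2 weeks on Sln read 89.8, 19.8, 1780 and 7.8. The mean to which the atrial values refer thus included a single heart with high atrial signals, and such a split was not particular to the repressed hearts. Other marker lists did not all keep the partners. Over 6 measured nerve and Schwann cell markers the mean difference was -0.11, 0.0, -0.48 and -0.09 in the early hearts and -0.40, -0.17 and -0.41 in the late hearts. The signals are of whole heart tissue, in which fewer cells of a type and less RNA per cell cannot be told apart.

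**Figure D3:**
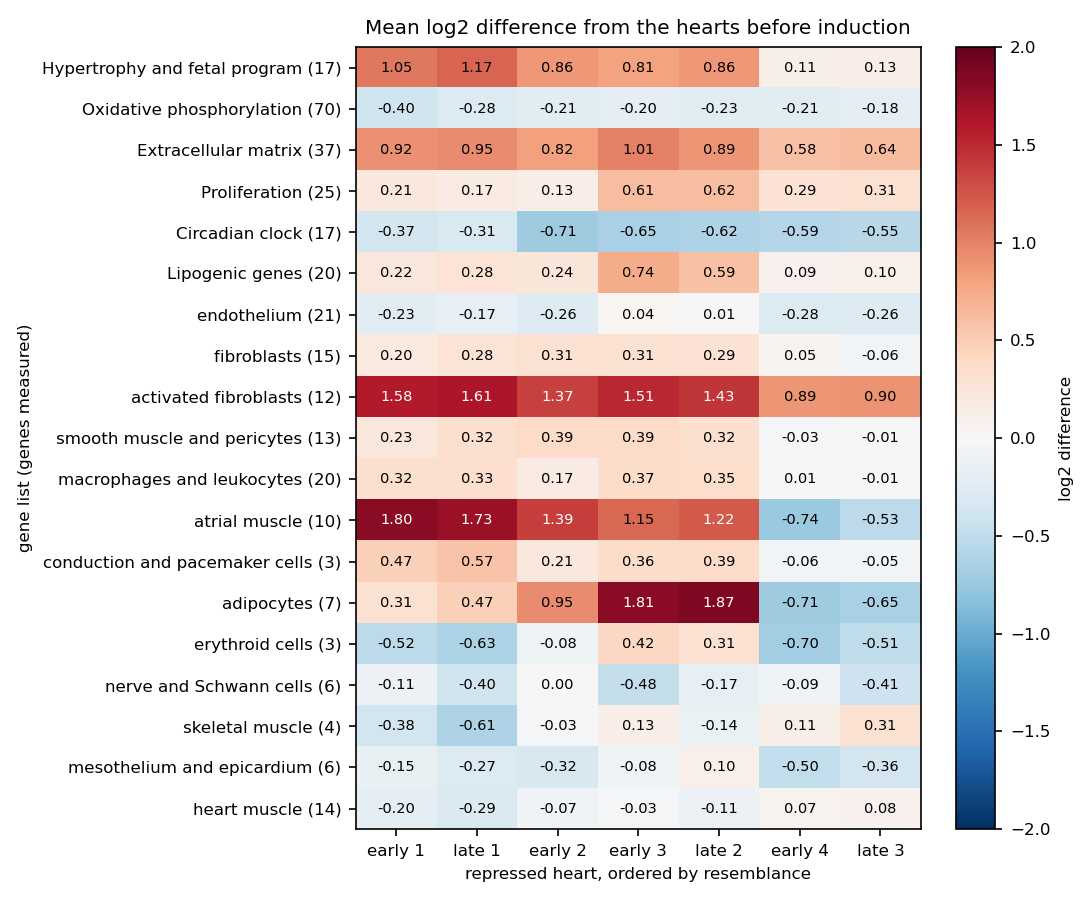
Mean log2 difference from the hearts before induction over the measured genes of 19 lists (rows, number of genes in brackets) in each repressed heart, with the hearts ordered so that those that resembled each other stand side by side. The atrial list runs from 1.80 to -0.74 and the adipocyte list from 1.87 to -0.71, and late hearts lie near their early counterparts in both.

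Late heart 1 also stood apart by a number of weak readings. On chip 430A 316 of 15565 probe sets were lower in it than in each of the other 6 repressed hearts by at least 1 log2 unit, against 4 to 17 for those hearts, and on chip 430B 410 of 17519 were, against 37 to 118. A probe set of the cardiac myosin heavy chain gene Myh6 (1417729_at) read 56.9 there and between 3879 and 5805 in the other hearts, and one of the desmosomal gene Dsp read 54.8 against 1946 to 3202. A brighter Myh6 probe set (1448826_at) did not share this, with 19190 in late heart 1 and 18360 to 21650 in the others.

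Measures of RNA quality and signal were compared between the groups by a test that cannot give a p under 0.05 with 3 against 4 hearts. The 3′ to 5′ ratio of Actb on chip 430A, which rises when RNA is degraded, was 1.10 ± 0.134 in the late hearts (SD, n = 3) and 1.09 ± 0.0608 in the early hearts (SD, n = 4; two-sided exact permutation p = 0.971). Of 8 such values tested, the lowest exact p was 0.0571, for 18S ribosomal RNA on chip 430B (43.3 ± 9.54 in 3 late hearts, 83.0 ± 29.5 in 4 early hearts, 0.457 adjusted over the 8). That p is the smallest that 3 against 4 hearts can give, so the test could not decide whether a measure differed. In this 18S signal all late hearts (32.3 to 48.8) lay below all early hearts (63.5 to 126.5). The hearts before induction stood apart from all repressed hearts in the Actb ratio on chip 430B (1.183 to 1.474, repressed 0.9685 to 1.147). They also did so in the 18S signal on chip 430A (173.7 to 311.1, repressed 44.0 to 103.6). The other measures overlapped. The part of RNA quality in the differences from the hearts before induction given below was not tested. Among the reference hearts, heart 3 of the 6 weeks on group had a far higher Actb ratio than the others. It was 3.707 on chip 430A (others 1.212 to 1.922) and 4.204 on chip 430B (others 1.171 to 1.875). This heart enters the 6 weeks on means given below. The tissue label was borne by the defining heart muscle markers: Actc1, the cardiac actin, read between 17820 and 30810, Tnnt2, cardiac troponin T, between 19700 and 24310, and Myl2, the ventricular light chain, between 20100 and 27360 in the 7 repressed hearts.

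Akt1 itself, the gene the transgene encodes, was below its induced level in both groups. Its probe set 1425711_a_at read 745.4, 696.1, 705.7 and 724.7 in the early repressed hearts and 789.5, 633.3 and 836.8 in the late repressed hearts. With the transgene on it had read 2878 ± 645 at 2 weeks (SD, n = 4) and 2365 ± 542 at 6 weeks (SD, n = 3), and before induction 547.8 ± 69.7 (SD, n = 4). The repressed hearts overlapped with each other and lay below all 7 induced hearts. Late minus early was 0.06 ± 0.174 on the log2 scale (SE; 95% interval -0.31 to 0.42), and the exact permutation test gave p = 0.571 for 3 late against 4 early hearts. A second probe set (1416657_at) was at 1004 ± 136 in the 3 late hearts and 955.8 ± 44.0 in the 4 early hearts (SD), and between 537.1 and 1045 in the induced hearts.

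The comparison asked how a heart that had recovered for 2 weeks from 6 weeks of Akt1 differed from one that had recovered for 2 days from 2 weeks of it. A single gene, Nipsnap2, met the threshold, and it was lower in the late hearts. On chip 430A limma called 1 of 15565 probe sets (0.00642%) at an adjusted p under 0.05, and on chip 430B it called 0 of 17519 (0.0%). At an unadjusted p under 0.05 there were 694 on chip 430A (4.46%), 220 higher (1.41%) and 474 lower (3.05%) in the late hearts. On chip 430B there were 788 (4.5%), 307 higher (1.75%) and 481 lower (2.75%). The signals of the hearts did not overlap between the groups at 1064 probe sets (6.84%) of chip 430A and 1129 (6.44%) of chip 430B. With late heart 1, 2 or 3 left out in turn, which leaves 2 late hearts, 316, 977 and 948 probe sets of chip 430A had an unadjusted p under 0.05, and Nipsnap2 was the one call each time. No fit with the resembling hearts as pairs was made, since the pairs were found from these same signals.

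The number of hearts let differences of a certain size be seen. The 95% interval of the difference lay within ±1 log2 unit, a doubling or a halving, for 14485 probe sets of chip 430A (93.1%) and 11406 of chip 430B (65.1%). It lay within ±0.5 for 42.9% and 14.4% of them. For the other probe sets a missed call leaves differences of more than a factor of 2 possible, and in no case does it show that the groups were alike.

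Nipsnap2 encodes a mitochondrial protein of the NIPSNAP family. Its signal (probe set 1419484_a_at) was 2983, 2762, 2106 and 3636 in the early repressed hearts and 1000, 847.6 and 857.9 in the late repressed hearts. The late hearts were the lowest of all 18. The hearts at 6 weeks on read 1712, 1433 and 1813 and overlapped with the hearts before induction, which lay between 1769 and 2554. Late minus early was -1.60 ± 0.169 on the log2 scale (SE; 95% interval -1.95 to -1.24; limma, adjusted p = 0.000192). Against the hearts before induction the late hearts were lower by -1.17 ± 0.169 (adjusted p = 0.000999) and the early hearts differed by 0.42 ± 0.156 (adjusted p = 0.122, limma). Over the 18 other settings tried the difference ran from -1.73 to -1.47, with adjusted p between 4.53e-05 and 0.0441. A second Nipsnap2 probe set, dimmer and on chip 430B, read 77.6, 80.0, 93.0 and 49.1 in the early hearts and 32.4, 113.5 and 21.2 in the late hearts, which overlapped (log2 difference -0.58 ± 0.451, unadjusted p = 0.214, limma).

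**Figure D4:**
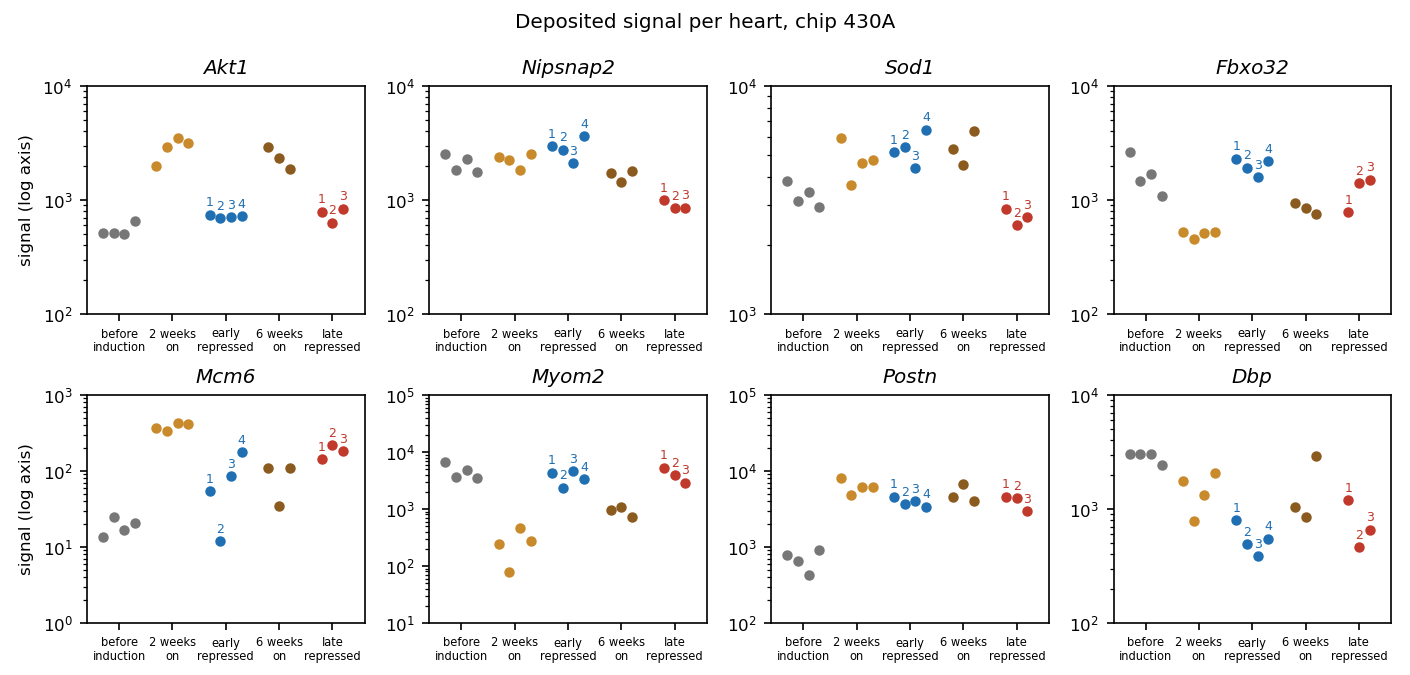
Deposited signal on a log axis of 8 genes in each of the 18 hearts, by group, with the heart number above the points of the repressed hearts. Nipsnap2 and Sod1 are lower in all 3 late repressed hearts than in the 4 early ones, while Akt1, Myom2, Postn and Dbp overlap between these groups.

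The gene next in rank just missed the threshold. Superoxide dismutase 1 (Sod1), the copper and zinc enzyme of the cytosol that removes superoxide, read 5119, 5373, 4374 and 6423 in the early hearts and 2894, 2448 and 2657 in the late hearts by probe set 1451124_at. The late hearts were below every other heart, the hearts before induction lying between 2932 and 3839. Against those, the early hearts were higher by 0.66 (limma, adjusted p = 0.0125) and the late hearts differed by -0.31 (adjusted p = 0.31, limma). The difference was -0.97 ± 0.158 on the log2 scale (limma, adjusted p = 0.0504), and it was called under 6 other settings. Of the 3 other Sod1 probe sets, the bright 1459976_s_at was also lower (-0.54 ± 0.262, interval -1.09 to 0.00), at 1938, 2032, 1614 and 1884 against 1823, 929.8 and 1221, while the others differed by -0.17 ± 0.206 and -0.13 ± 0.212.

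Below these, no probe set came under an adjusted p of 0.2 on either chip, and the genes with the lowest p are given as a description, having been named after their values were seen. Atrx, a chromatin remodeller, read 171.2, 169.8, 188.0 and 270.2 in the early hearts and 9.8, 73.0 and 23.5 in the late hearts at 1 of its probe sets (limma, adjusted p = 0.203), late signals so near the offset of 50.02 that the size of the log2 difference depends on it. Abcf1, a translation factor of the ATP-binding cassette family, had 502.9, 450.5, 343.4 and 466.5 against 63.0, 138.6 and 222.4 (-1.44 ± 0.277). In the other direction Apex1, a DNA repair endonuclease, had 664.3, 567.4, 735.1 and 546.4 in the early hearts against 1372, 1427 and 1861 in the late hearts (1.24 ± 0.243), and S100a10, the partner of annexin A2, had 166.5, 273.4, 339.5 and 293.3 against 878.6, 538.5 and 445.7 (1.06 ± 0.216).

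Most of these differences were seen at a single probe set of the gene. The 12 genes of lowest p on chip 430A and the 6 on chip 430B had 45 further probe sets tested, of which 2 had an unadjusted p under 0.05. One of these was of Apex1 (0.60 ± 0.249). The brightest S100a10 probe set read 902.1, 857.9, 1004 and 868.7 in the early hearts and 716.0, 1046 and 585.9 in the late hearts, and so overlapped.

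The 23 measured genes of a fixed set (of 24 listed, Angpt2 not being measured) were described whatever their result, and apart from Akt1 they are given here by role. None was called by limma. At an unadjusted p under 0.05 there were 2, beside 3.66% of all genes, and 1 did not overlap between the groups, beside 6.84% and 6.44% of the probe sets of the chips, so neither count stood out from the background. For 18 the 95% interval lay within ±1 log2 unit.

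The genes of cardiac growth and of the fetal program in this set overlapped between the groups. Atrial natriuretic peptide (Nppa), a hormone of the stretched heart, read 16660, 11190, 10730 and 3982 in the early hearts and 17960, 10660 and 6579 in the late hearts. It was lowest in early heart 4 and late heart 3 as the atrial markers were, a list that holds Nppa itself. The difference was 0.19 ± 0.732 (interval -1.34 to 1.72), so that the spread between hearts hides changes of more than a doubling. Its ventricular relative Nppb read 5914, 3896, 6474 and 5571 against 6490, 6337 and 4769 (0.11 ± 0.409). Slow myosin Myh7 read 2628, 950.2, 1722 and 954.7 against 3195, 1625 and 955.7 (0.25 ± 0.487), again with its highest reading in the hearts numbered 1. Adult myosin Myh6 differed by 0.06 ± 0.195, skeletal actin Acta1 by -0.01 ± 0.277 and the calcium pump Atp2a2 by 0.03 ± 0.192.

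Fbxo32, the muscle ubiquitin ligase atrogin-1 and a FoxO target, was the one gene of the set whose hearts did not overlap. Its brightest probe set (1448747_at) read 2308, 1915, 1589 and 2193 in the early hearts and 785.3, 1410 and 1511 in the late hearts, a difference of -0.71 ± 0.234 (interval -1.20 to -0.22, unadjusted p = 0.00661, limma, adjusted p = 1.0). Without late heart 1 it was -0.43. A second probe set on chip 430A (1417522_at) read 970.5, 800.0, 758.0 and 884.5 against 835.4, 837.7 and 870.3, a difference of 0.00 ± 0.229 and one on chip 430B differed by 0.17 ± 0.224. With the transgene on the brightest probe set had read 501.2 ± 34.8 at 2 weeks (SD, n = 4) and 848.1 ± 95.6 at 6 weeks (SD, n = 3). The 2 week mean lay below each repressed heart, and the 6 week mean lay below each except late heart 1.

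Genes of insulin signalling and of glucose uptake overlapped between the repressed groups. The insulin receptor substrate Irs1 read 988.0, 839.0, 1149 and 1001 in the early hearts and 1068, 1207 and 1085 in the late hearts, against 450.0 ± 64.0 (SD, n = 4) and 370.8 ± 59.5 (SD, n = 3) at 2 and 6 weeks on and 1174 ± 152 before induction (SD, n = 4). The insulin-responsive glucose transporter Slc2a4 read 3520, 3474, 3190 and 3754 against 3377, 3235 and 4008, a difference of 0.02 ± 0.119 (interval -0.23 to 0.27). For Irs1 the difference was 0.17 ± 0.144 (interval -0.13 to 0.47). These are among the tightest bounds of the set.

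The regulators of metabolism also overlapped between the groups. Ppargc1a, the coactivator of mitochondrial genes, differed by 0.14 ± 0.183, its partner in fatty acid oxidation Ppara by -0.36 ± 0.267, and the glucocorticoid-induced factor Klf15 by 0.07 ± 0.247. Ppara read 703.3, 594.7, 888.2 and 651.2 in the early hearts and 438.4, 554.8 and 626.3 in the late hearts, with overlap. The M-band protein gene Myom2 had read 4649 ± 1500 before induction (SD, n = 4), 264.9 ± 155 at 2 weeks on (SD, n = 4) and 921.5 ± 193 at 6 weeks on (SD, n = 3), and it read 4308, 2350, 4575 and 3343 in the early and 5315, 3923 and 2875 in the late repressed hearts (difference 0.15 ± 0.348). Vegfa, the endothelial growth factor, differed by -0.08 ± 0.163 and the channel subunit gene Kcnip2 by -0.20 ± 0.245 at its dim chip 430A probe set. The Kcnip2 probe set of chip 430B differed by 0.79 ± 0.728 (interval -0.73 to 2.31), in the other direction. That probe set read 251.3 to 558.1 before induction and 16.46 to 40.76 with the transgene on.

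Both matrix genes of the set were higher in each repressed group than before induction. Periostin (Postn), a matrix protein of activated fibroblasts, read 4572, 3664, 4015 and 3385 in the early hearts and 4583, 4411 and 2932 in the late hearts, and between 422.8 and 900.5 before induction. The difference between the repressed groups was 0.01 ± 0.229 (interval -0.47 to 0.48), and each group was higher than the hearts before induction by 2.45 on the log2 scale (SE 0.212 and 0.229; limma, adjusted p = 2.11e-06 early and 6.36e-06 late). Type I collagen (Col1a1) read 2400, 1971, 2891 and 2474 against 3674, 3048 and 2127 (difference 0.25 ± 0.257), and was higher than before induction by 1.06 ± 0.238 early and 1.31 ± 0.257 late (adjusted p = 0.0131 and 0.00725, limma). Both comparisons with the start share the same 4 hearts before induction.

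Mcm6, a subunit of the helicase that opens DNA for replication, was the second gene of the set under an unadjusted p of 0.05. It read 54.0, 12.0, 85.3 and 178.1 in the early hearts and 142.1, 217.7 and 181.9 in the late hearts, so that early heart 4 overlapped with the late group. The difference was 0.94 ± 0.316 (unadjusted p = 0.0076, limma, adjusted p = 1.0), and with signals this close to the offset of 50.02 it ranged from 0.55 to 1.41 as the offset was changed. Before induction Mcm6 lay between 13.5 and 24.5, and at 2 weeks on it had read 386.1 ± 41.7 (SD, n = 4). The proteasome subunit Psmd6 differed by 0.08 ± 0.109 at its brightest probe set, which differed from before induction by 0.11 early and 0.19 late. A dimmer Psmd6 probe set (1423696_a_at) differed by 0.27 ± 0.213 between the repressed groups. Against the hearts before induction it was lower by -2.89 early and -2.62 late (limma, adjusted p = 1.25e-07 and 1.33e-06). The transferrin receptor Tfrc, which takes up iron, differed by 0.11 ± 0.194. In Tfrc both repressed groups were below the hearts before induction (-1.21 ± 0.179 early, -1.10 ± 0.194 late; limma, adjusted p = 0.000825 and 0.00364).

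Genes of the circadian clock stood away from the hearts before induction in both repressed groups. The output factor Dbp read 795.0, 492.9, 386.9 and 546.9 in the early hearts and 1192, 459.5 and 658.4 in the late hearts, against 2446 to 3065 before induction, a fall of -2.32 ± 0.338 early and -1.94 ± 0.366 late (limma, adjusted p = 0.000739 and 0.00615). The activator Arntl, which peaks opposite to Dbp, read 286.6, 343.6, 369.7 and 321.3 against 468.6, 398.6 and 324.1, with a range of 39.8 to 190.1 before induction. It was higher by 1.37 ± 0.234 early and 1.59 ± 0.252 late (adjusted p = 0.00259 and 0.00197, limma). Between the repressed groups Dbp differed by 0.38 ± 0.366 and Arntl by 0.23 ± 0.252. The labels do not state the hour at which hearts were taken.

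**Figure D5:**
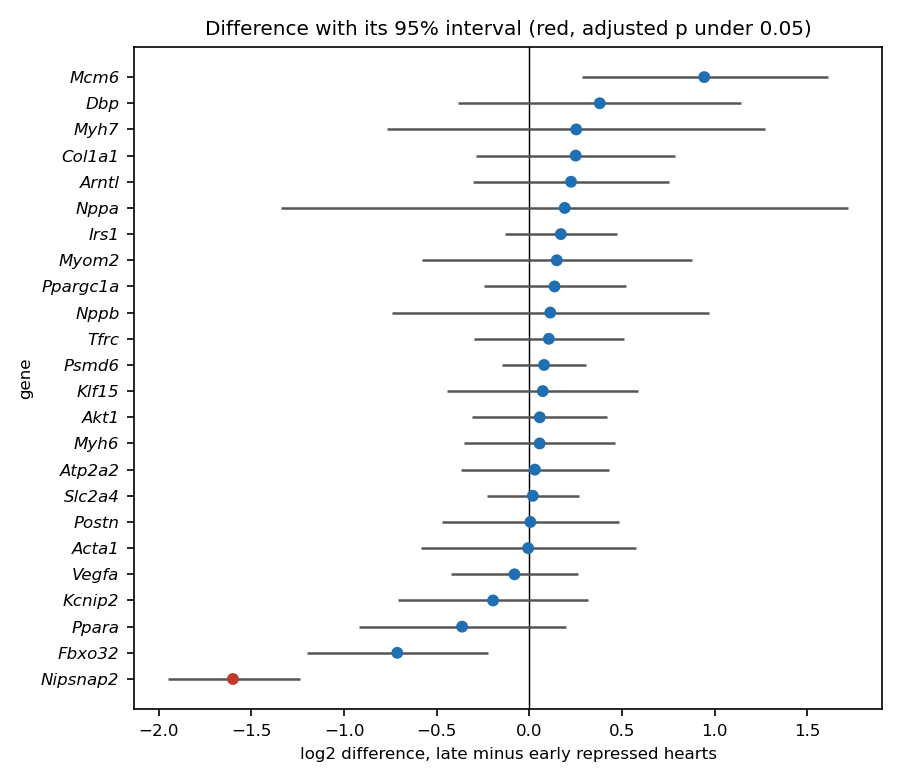
Log2 difference, late minus early repressed hearts, with its 95% interval for Nipsnap2 and the 23 measured genes of the fixed set, ordered by size. Only Nipsnap2 (-1.60) is called, and the intervals of Fbxo32 and Mcm6 leave out 0 before adjustment for the number of probe sets tested.

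Over 45 gene lists, 812 genes were measured and none was called between the repressed groups. At an unadjusted p under 0.05 there were 24 of the 812, beside 536 of all 14650 genes (3.66%), 257 higher (1.75%) and 279 lower (1.9%), so the lists held no more of them than the chips as a whole. Of all 14650 genes 1 (0.00683%), Nipsnap2, was called. The medians of the lists ran from -0.10 to 0.17 log2 units, and 42 of the 45 lay within ±0.1, beside a median of 0.013 over all genes. For 740 of the 812 genes the 95% interval lay within ±1. The highest median, 0.17, was that of 11 genes of the intercalated disc, the junction between heart muscle cells, where 1 gene, Ctnnb1, had an unadjusted p under 0.05 (0.32 ± 0.127; 6231, 5456, 5631 and 4820 early, 7113, 6357 and 7227 late).

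Lists of Akt signalling and its targets showed the same. Of 24 measured genes of Akt, insulin and phosphatidylinositol 3-kinase signalling, 1 was lower at an unadjusted p under 0.05 and 0 were higher, the lower one being Ddit4, an inhibitor of mTOR complex 1 (-0.55 ± 0.230; 318.2, 640.4, 447.0 and 318.5 early, 258.8, 314.4 and 231.2 late). Of 21 FoxO and atrophy targets, 1 was higher and 2 were lower: Gabarapl1, an autophagosome protein, at 0.35 ± 0.164, and Fbxo32 and Ulk1, a kinase that starts autophagy, at -0.71 ± 0.234 and -0.37 ± 0.134. Among 17 growth and fetal genes 1 was higher, the transcription factor gene Mef2c (0.39 ± 0.138; 1065, 946.3, 903.5 and 961.6 early, 1484, 1228 and 1166 late, with no overlap).

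Genes of contraction and calcium gave a few single differences, some with their lowest reading in late heart 1. Of 15 calcium handling genes 1 was higher and 1 lower at an unadjusted p under 0.05. The higher was Hrc, a calcium-binding protein of the sarcoplasmic reticulum, with 7444, 6687, 7754 and 7448 early and 10590, 8889 and 9847 late (0.41 ± 0.134), and the lower was the sodium-calcium exchanger Slc8a1, with 260.2, 350.2, 169.1 and 283.1 early and 81.9, 125.6 and 240.4 late (-0.71 ± 0.271). The one lower gene of 21 adult sarcomere genes, the Z-disc gene Nebl, read 87.7 in late heart 1, 528.8 and 677.3 in late hearts 2 and 3 and 457.6 to 1128 in the early hearts. Of 14 heart muscle markers 2 were lower, and of them the transcription factor gene Tbx20 read 143.8 in late heart 1 against 564.5 to 765.4 in the other 6.

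Lists of energy metabolism held no difference at an unadjusted p under 0.05. None of 70 genes of oxidative phosphorylation, 28 of fatty acid use, 23 of glucose use, 21 of the tricarboxylic acid cycle and 20 of lipogenesis had an unadjusted p under 0.05 between the groups by limma, with medians of 0.02, 0.05, 0.08, 0.04 and 0.00. For 69 of the 70, 28 of the 28, 23 of the 23, 21 of the 21 and 18 of the 20 the 95% interval lay within ±1. The same held for 37 genes of the extracellular matrix (0 at an unadjusted p under 0.05, median 0.04, 34 intervals within ±1) and 12 markers of activated fibroblasts (0, median 0.01, 9 within ±1).

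Where each repressed group lay against the hearts before induction is given side by side, and since both comparisons share those 4 hearts, a likeness between them is not read as a result. Chip 430A had 827 probe sets called in the early hearts (5.31%) and 551 in the late hearts (3.54%), and chip 430B had 242 (1.38%) and 300 (1.71%). Over genes, early hearts had 293 higher (2.0%) and 265 lower (1.81%) of 14650, and late hearts 220 (1.5%) and 177 (1.21%). The hearts before induction also differed from the repressed hearts in measures of RNA quality, as given above, whose part in these calls was not tested.

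In the extracellular matrix list 19 of 37 genes were higher and 0 lower in the early hearts, and 16 higher and 0 lower in the late hearts. Thrombospondin 4 (Thbs4), a matrix protein of injured heart, read 832.4, 542.0, 643.3 and 446.9 early and 987.3, 420.9 and 409.8 late, against 27.3 to 188.9 before induction (2.62 and 2.52). Fibronectin (Fn1) was higher by 1.09 and 1.14 and the cartilage protein Cilp by 2.05 and 2.23. Of 12 activated fibroblast markers 7 and 8 were higher and 0 lower. Their mean log2 difference from the start was 1.58, 1.37, 1.51 and 0.89 in the early hearts and 1.61, 1.43 and 0.90 in the late hearts, lowest in early heart 4 and late heart 3, which were also lowest in atrial and adipocyte markers.

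Of 17 clock genes 1 was higher and 9 lower in the early hearts, and 1 higher and 6 lower in the late hearts. The repressor Per3 read 279.1, 176.2, 247.4 and 191.3 early and 284.5, 179.4 and 219.2 late, against 434.7 to 681.9 before induction (-1.15 and -1.13). Hlf, an output factor related to Dbp, was lower by -1.19 and -1.48.

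Among genes of the respiratory chain 0 of 70 were higher and 9 lower in the early hearts, and 0 higher and 4 lower in the late hearts. Ndufb10, a subunit of complex I, read 4534, 5130, 5181 and 4739 early and 4958, 5258 and 4387 late, against 8605 to 9004 before induction (-0.85 and -0.86). Of 26 genes of cytosolic translation 5 and 6 were lower and 0 higher, the ribosomal protein gene Rpl27 by -0.74 and -0.85. Of 28 genes of fatty acid use 4 and 2 were lower and 0 higher, among them the lipid droplet protein gene Plin5 by -1.22 and -1.11.

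Of 20 tubulin and cytoskeleton genes 1 was higher and 4 were lower in either group. Tuba4a, an alpha-tubulin, read 6308, 6037, 5777 and 4946 early and 6614, 6286 and 6038 late, against 17590 to 25260 before induction (-1.84 and -1.70), and Tubb4b, a beta-tubulin, was lower by -1.36 and -1.46. Myl1, a light chain of fetal and skeletal muscle myosin, was the one gene of the growth and fetal list called in either group, at 9705, 15330, 9687 and 16160 early and 12020, 13580 and 15660 late, against 1477 to 3491 before induction (2.42 and 2.56). The calcium release channel gene Ryr2 was higher by 1.05 and 1.19. The glycogen synthase gene Gys1 was higher by 0.79 and 0.96, and Ppp1r3c, which targets a phosphatase to glycogen, by 0.95 and 0.91. All values in brackets or after "by" in the last 4 paragraphs are log2 differences from the hearts before induction, early hearts first, called by limma at an adjusted p under 0.05, and these genes were named after their values were seen.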

How the data were processed

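The deposited values are the authors' linear intensity per probe set, MAS5 signals per the submitters' processing notes; neither the labels nor the notes state its version or the scan dates (not given in the sources used here). A 2% trimmed mean was 500.2 on all arrays of chip 430A and 122.5 on chip 430B, so signals were used as deposited. Probe sets with a mean signal of at least 20% of the trimmed mean were kept. Signals plus 10% of the trimmed mean (50.02 and 12.25) were taken to log2 and fitted per chip with limma 3.58.1 in R 4.3.3 (lmFit, contrasts, eBayes with a trend), with 5 group means and a spread shared by 18 arrays. P-values were adjusted by Benjamini-Hochberg within a chip, and adjusted p under 0.05 was the call. Single values per heart were compared by two-sided exact permutation tests (scipy 1.17.1). The fits were tested on simulated data.

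A gene was represented by its brightest probe set with 1 symbol in the platform annotation, on chip 430A where measured there. Symbols were on 20380 of the probe sets of chip 430A (691 had several, 1555 none) and on 14661 of chip 430B (245 several, 7605 none). The rule for named genes took called probe sets whose hearts did not overlap, up to 3 called members of each list, and 24 listed genes whatever their result. The hearts compared, the gene lists and the named genes were chosen with earlier results of these data known. Arrays have no depth in counts, and their number limits the precision. One probe set of low p is not reported here.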

Additional observations from a re-analysis of the deposited data

Results flagged for a closer look

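Among 112 values examined in the 4 early repressed hearts, 6 had a single heart so far from the other 3 that its gap, divided by the range of the 4, passed Dixon's 95% limit, which chance alone passes in about 1 in 20 groups. Some of these genes had been picked for their spread between the early hearts. Early heart 3 was far above the others in Scd1 (8140, the others 549.6 to 1011), Fasn (3628, the others 872.1 to 1119) and Tor4a, a torsin-family gene (217.7, the others 70.4 to 75.6). Early heart 2 was far above in Camk2d (965.6, the others 191.7 to 294.6). The oxidative phosphorylation score of early heart 1 was -0.40 against -0.21 to -0.20 in the others, and the endothelial marker score of early heart 3 was 0.0366 against -0.28 to -0.23. Of these values, those of Scd1 and Fasn had a like reading in late heart 2 (6988 and 3520), and its endothelial score was 0.01.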

How the results depend on the processing

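Nipsnap2 was called under each of the 18 other settings tried on chip 430A. That chip had 2 calls, the second being Sod1, with an offset of 30%, a filter at 50% of the trimmed mean, quantile normalization or the Actb ratio as a covariate. With 1 heart left out at a time it had 1 to 2 calls, 2 without heart 3 of the 6 weeks on group or without early heart 3. Chip 430B had 0 to 3, and the 3 (Lars2, Mia3 and Tspan9, all lower) appeared without late heart 3 only. With the replicate number as a block the calls were 1 and 0 (614 and 814 probe sets at an unadjusted p under 0.05), and the block changed no call. The numbers did not pair the hearts: deviations of same-numbered hearts over all probe sets tested correlated at 0.23, -0.05 and -0.15 on chip 430A. Fbxo32 moved to -0.43 without late heart 1 and Mcm6 to 1.41 or 0.55 with the smaller or larger offset. No listed gene was called under any setting.

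The correlations between counterpart hearts, in the order late heart 1, 2 and 3, changed with the probe sets compared, a choice made after seeing the data. On chip 430A they were 0.81, 0.73 and 0.94 over the 50 most variable, 0.48, 0.44 and 0.68 over 1000, and 0.23, 0.22 and 0.35 over all tested. On chip 430B they were 0.25, 0.10 and 0.52, then 0.24, 0.15 and 0.35, and 0.11, 0.09 and 0.10 over all tested. Over the 50 of chip 430B late heart 2 correlated better with early heart 1 (0.18) than with its counterpart. The cause was not tested.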
